A study of Mus musculus with 4 samples.

Results

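Most of the genes described here encode membrane carriers of amino acids and of closely related solutes. By symbol the genes belong to the mouse solute carrier families Slc1a, Slc3a, Slc6a, Slc7a, Slc36a, Slc38a and Slc43a. They were chosen by gene symbol alone, and 64 of the 24346 symbols in each library matched, 7 of family Slc1a, 2 of Slc3a, 20 of Slc6a, 16 of Slc7a, 5 of Slc36a, 11 of Slc38a and 3 of Slc43a. The matches include Slc7a6os, which is no carrier, and Slc36a1os and Slc6a19os, which are annotated as antisense genes. RNA came from hair follicle stem cells (HFSCs) of C3H/HeN mice, sorted from adult dorsal skin as cells with CD49f and CD34 on their surface and grown in M-CnT, a serum-free keratinocyte medium, with weekly passage. The 2 groups were HFSCs after 10 passages (10p-HFSCs, 2 libraries) and HFSCs after 48 passages in the same medium (48p-HFSCs, 2 libraries). No treatment separated the groups, so the comparison asks which genes differed after the longer culture. Whether the libraries of a group came from separate cultures or animals is not given in the sources used here.

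Amino acid carriers work as uniporters, exchangers or ion-coupled pumps, and a cell combines them. Sodium-coupled carriers load neutral amino acids into the cell, exchangers trade them for others such as leucine, and carriers in the lysosomal membrane release amino acids to the cytosol, where they feed the mTORC1 growth pathway. Several carriers of family Slc7a reach the surface only when bound to a heavy chain of family Slc3a. In culture, keratinocytes take up essential amino acids from the medium through such carriers.

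Values are FPKM, which the study defines as fragments scaled by exon length and by mapped fragments, so levels can be compared between genes. The paper does not state whether the libraries were also scaled to each other. Median-of-ratios scaling left the median difference over all genes at -0.03, the same as without it. The FPKM of a library summed to 581516 and 719012 in 10p-HFSCs, against 666018 and 1.41495e+06 in 48p-HFSCs, and low values put the depth of 48p-HFSC replicate 2 at 46.7% of that of 10p-HFSC replicate 1, the lowest of the 4. That library stands apart in both measures, so the difference without it is also given for several genes, though not for every gene. Of 7 HFSC and basal keratinocyte markers, Krt5 and Krt14 were at 1217 FPKM or more in every library. Itga6, which encodes CD49f, was called higher and Sox9 called lower in 48p-HFSCs. Cd34, the other sorting marker, and Lhx2, a transcription factor of HFSCs, stayed at 0.234 FPKM or below throughout. The study itself reported the reverse by qRT-PCR, with Cd34 maintained and Lhx2 and Sox9 increased in 48p-HFSCs. It also found most 10p- and 48p-HFSCs immunopositive for CD34 protein. Why the FPKM differ from these measures was not tested. The bulge keratin Krt15 was at 136 and 82.6 FPKM in 10p-HFSCs and at 425 FPKM in replicate 1 but 18.8 FPKM in replicate 2 of 48p-HFSCs, on both sides of the earlier libraries (limma adjusted p = 0.918). Of 7 fibroblast markers, 2 could be tested and both were lower in 48p-HFSCs: Vim was at 284 and 327 FPKM in 10p-HFSCs, against 2.35 and 3.08 in 48p-HFSCs, Col1a2 at 67.6 and 59.3 against 0 and 0, whereas Col1a1 did not exceed 0.903 FPKM and Dcn and Lum were listed at 0. Their summed FPKM was 353 and 388 in 10p-HFSCs, against 2.50 and 3.32 in 48p-HFSCs. Of 5 leukocyte markers, Cd74 and Lyz2 were called higher, with Ptprc at 0.071 FPKM or below and Cd3e and Tyrobp at 0, and the 5 summed to 0.641 and 0.694 FPKM in 10p-HFSCs, against 64.3 and 104.2 in 48p-HFSCs. None of the melanocyte (5 listed, 1 tested), endothelial (3 listed, 1 tested), Schwann cell (3 listed) or neuron (3 listed) markers was called, and their summed levels were 0.699 to 11.0, 0.172 to 2.38, 0.462 to 1.17 and 0 to 0.0452 FPKM. In bulk RNA, fewer cells of a type and less RNA per cell cannot be told apart, and the part of these marker differences in the results that follow was not tested.

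Of the 64 genes, 22 were at 1 FPKM or more in 2 or more libraries and were tested. The most abundant was Slc38a2, the sodium-coupled carrier SNAT2 for small neutral amino acids, which took 35.7% and 36.7% of the summed FPKM of the 64 genes in 10p-HFSCs, against 37.3% and 20.1% in 48p-HFSCs. In 10p-HFSCs it was followed by the heavy chain Slc3a2, the cationic carrier Slc7a1, the creatine carrier Slc6a8, the taurine carrier Slc6a6 and the leucine exchanger chain Slc7a5. The ranges of Slc7a1 and Slc6a8 overlapped, as did those of Slc7a5 and Slc7a6 and of Slc7a6 and Slc7a6os. Over the whole order, 7 of 21 neighbouring pairs overlapped in 10p-HFSCs and 17 of 21 in 48p-HFSCs, so that few steps of the later order exceeded the spread between libraries. Between the groups, Slc6a13 moved from rank 12 to rank 4, Slc6a4 from 10 to 17, Slc38a7 from 13 to 19 and Slc1a5 from 17 to 22. Summed over the 64 genes the level was 677 and 638.5 FPKM in 10p-HFSCs and 762 and 578 FPKM in 48p-HFSCs, so the groups overlapped in total. As a share of all FPKM of the library the sum was 0.116% and 0.0888% in 10p-HFSCs, against 0.114% and 0.0408% in 48p-HFSCs.

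**Figure D1:**
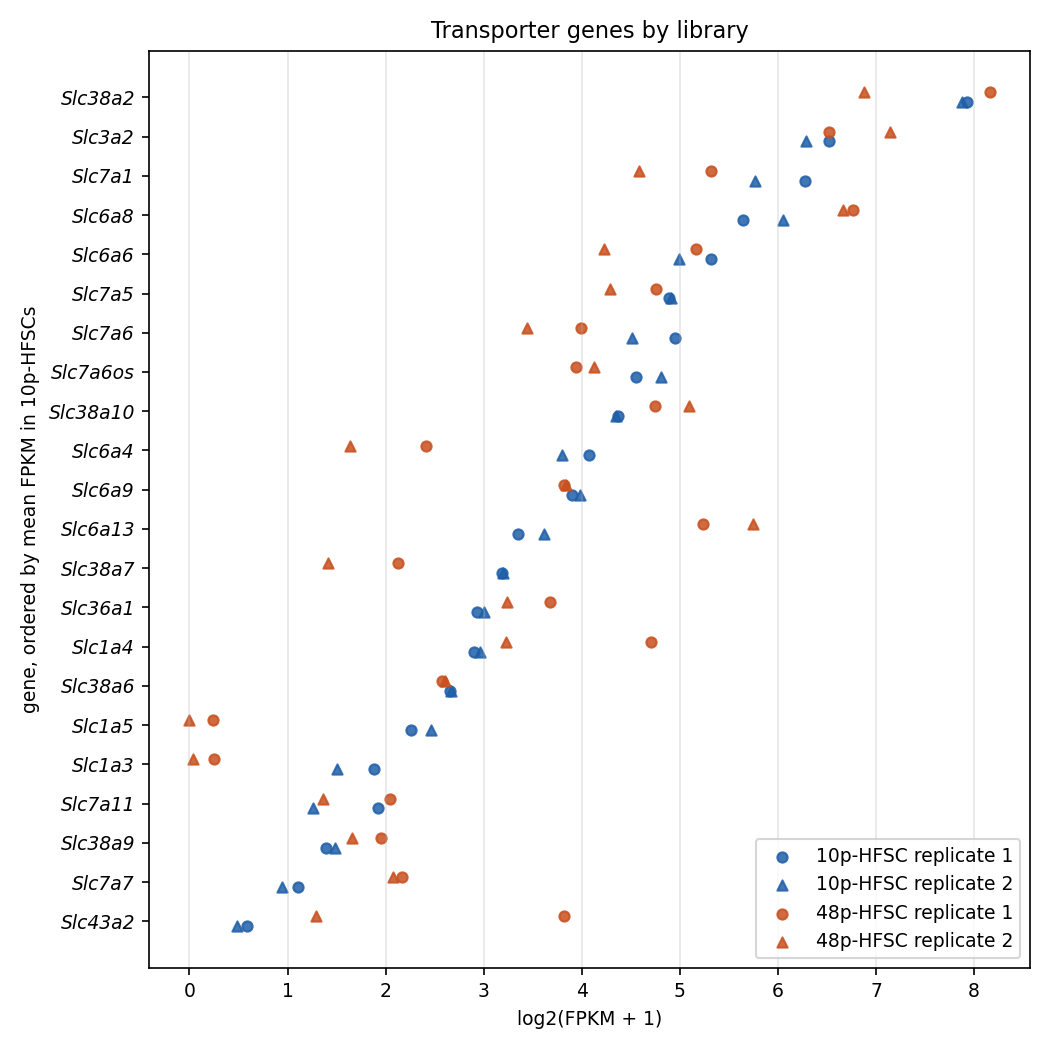
Level of the 22 tested genes in each library, as log2(FPKM + 1) on the horizontal axis, with genes ordered by their mean FPKM in 10p-HFSCs. Blue marks 10p-HFSCs and orange 48p-HFSCs, circles replicate 1 and triangles replicate 2; Slc38a2 is at the top in 10p-HFSCs with 242 and 234 FPKM, and the orange points of Slc1a5 and Slc1a3 lie near 0.

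**Figure D2:**
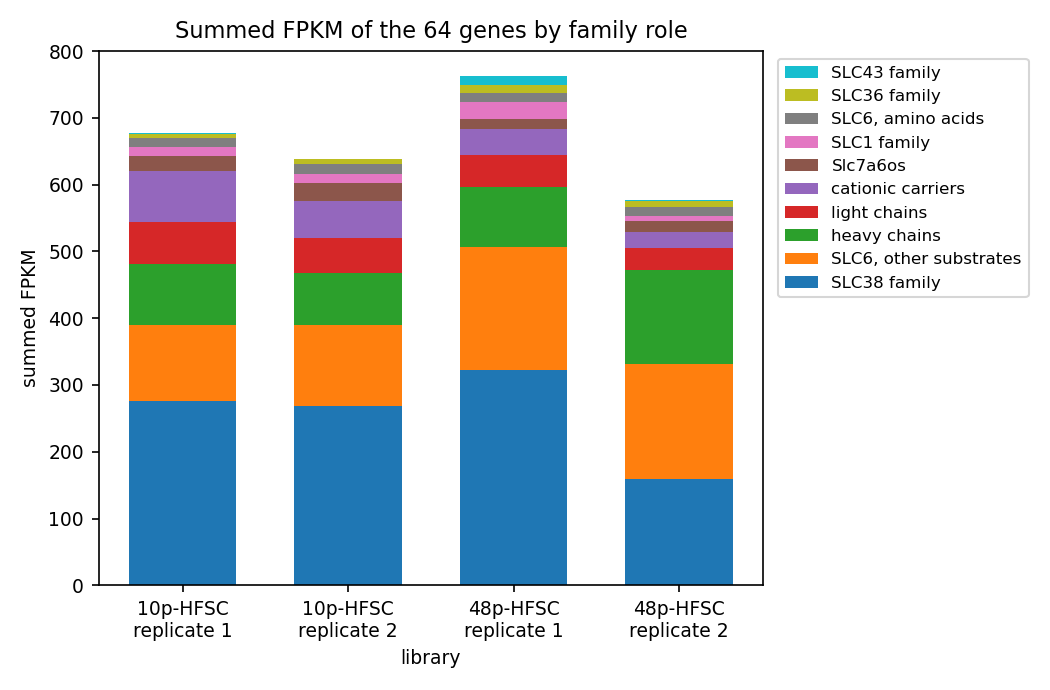
Summed FPKM of the 64 genes in each of the 4 libraries (vertical axis, from 0), with each bar divided by family and role. The SLC38 family takes 40.8% to 42.3% of the bar in 3 libraries and 27.5% in 48p-HFSC replicate 2, where the heavy chains take 24.3% against 11.9% to 13.5% in the others.

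Differences are given as 48p-HFSC minus 10p-HFSC on the log2(FPKM + 1) scale, which understates the change of low genes, and a gene is said to have risen or fallen if its limma adjusted p was under 0.05 and the difference was at least 1 in size. Of the 22 genes, 2 rose (Slc6a13 and Slc7a7) where 10.8% of the 11018 genes tested rose, and 4 fell (Slc1a5, Slc6a4, Slc1a3 and Slc38a7) where 9.15% of all genes fell. At an unadjusted p under 0.05 the count was 11 of the 22 and 4118 of all genes. The later libraries were both above the earlier ones for 8 of the 22 genes (31.7% of all genes) and both below them for 10 (34.3% of all genes), while Slc38a2, Slc3a2, Slc6a6 and Slc7a11 overlapped. The median difference of the 22 genes was -0.09, with quartiles of -0.92 and 0.55, beside a median of -0.03 and quartiles of -0.61 and 0.60 over all genes. Replicates of 10p-HFSCs differed by a median of 0.18 over the 22 genes and those of 48p-HFSCs by 0.49, beside 0.22 and 0.47 over all tested genes. Slc1a4, Slc38a2 and Slc43a2 differed by more than 1 between the 48p-HFSC replicates. Without either 10p-HFSC library the calls of all 6 genes were lost, as were most calls over all genes. Such a fit leaves 1 library in the group and takes the spread from the 48p-HFSC pair only, so the loss is not particular to these genes. The difference of Slc6a13 was 1.87 without 10p-HFSC replicate 1 and 2.13 without replicate 2, and that of Slc1a5 was -2.34 and -2.14. Leaving out either 48p-HFSC library also changed the counts, for the 22 genes as for all genes, in fits with 1 library in that group. When every library was rescaled to the same sum (TPM), which moved the median over all genes to -0.56, none rose and 2 fell (Slc1a5 and Slc1a3), with 623 of all genes higher and 812 lower in place of 1189 and 1008, and 9 of the 22 had an unadjusted p under 0.05.

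**Figure D3:**
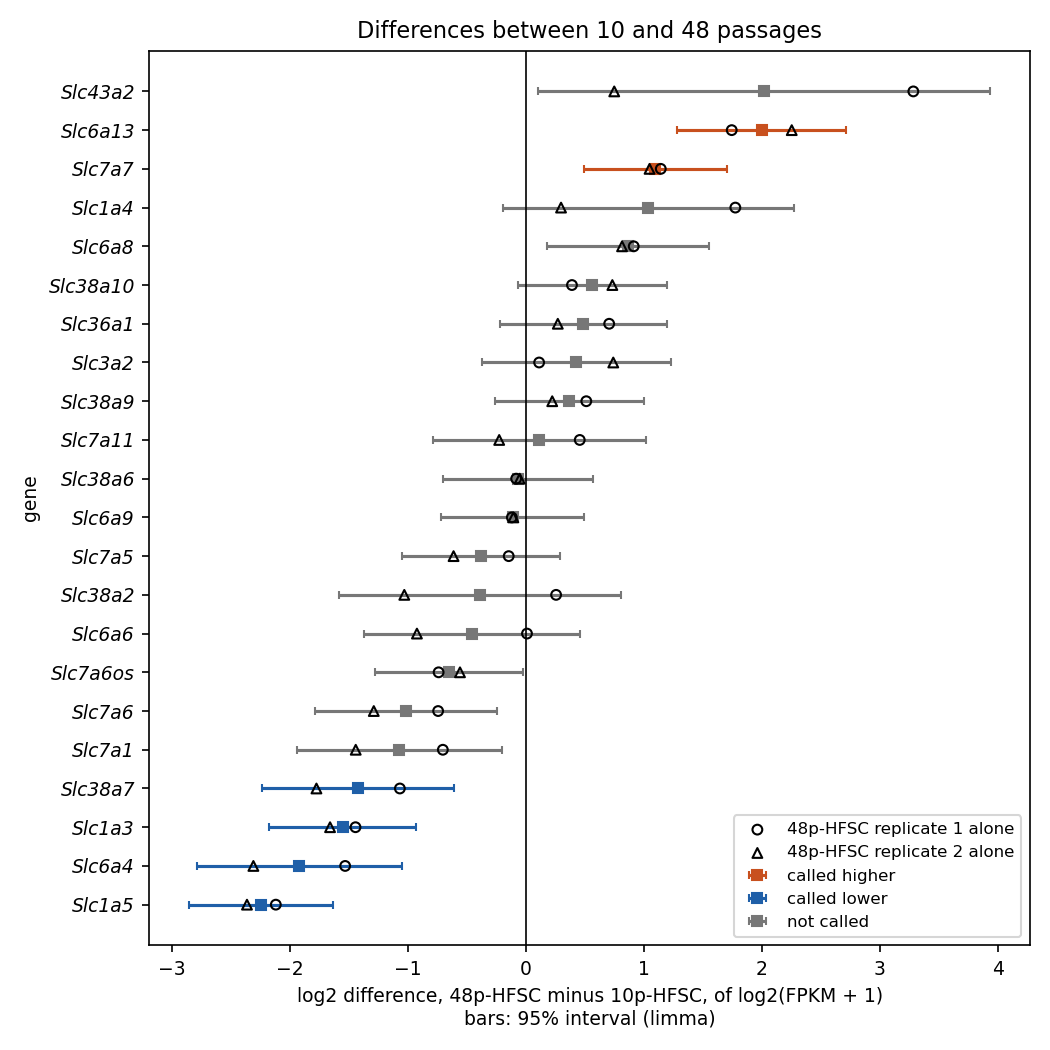
Log2 difference of each of the 22 tested genes between 48p-HFSCs and 10p-HFSCs (squares, 48p-HFSC minus 10p-HFSC), with its 95% interval from limma as a bar. Open circles and triangles give each 48p-HFSC library alone against the mean of 10p-HFSCs; the 2 orange squares are Slc6a13 at 2.00 and Slc7a7 at 1.10, the 4 blue squares run from -2.24 to -1.42, and the open symbols of Slc43a2, Slc1a4 and Slc38a2 lie far apart.

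Of the 3 tested carriers of glutamate and of small neutral amino acids in family Slc1a, 2 fell. Slc1a5, the sodium-dependent glutamine exchanger ASCT2, lies on chromosome 7 (mm10, 16781340 to 16798274, plus strand). Its level was 3.79 and 4.52 FPKM in 10p-HFSCs and 0.185 and 0 FPKM in 48p-HFSCs. Both early libraries were thus well above both late ones, and the gene had the lowest mean of the 22 in 48p-HFSCs. The log2 difference was -2.24 (SE 0.25, 95% interval -2.85 to -1.63, limma adjusted p = 0.0031). Slc1a3, a glutamate and aspartate carrier on chromosome 15 (8634124 to 8710764, minus strand), was at 2.69 and 1.84 FPKM in 10p-HFSCs and at 0.192 and 0.0262 FPKM in 48p-HFSCs. The groups did not overlap, and the difference was -1.55 (SE 0.25, 95% interval -2.17 to -0.93, adjusted p = 0.0116 by limma). Slc1a4, the neutral amino acid exchanger ASCT1, which carries alanine, serine and cysteine, did not pass the test. It was at 6.47 and 6.77 FPKM in 10p-HFSCs and at 25.1 and 8.38 FPKM in 48p-HFSCs, so only replicate 1 of the later cells stood far above the earlier ones (difference 1.04, SE 0.50, limma adjusted p = 0.189). Without 48p-HFSC replicate 2 its difference was 1.78 with an adjusted p of 0.023, and over all settings tried the adjusted p of Slc1a4 ran from 0.023 to 0.681. The level of Slc1a5 relative to that of Slc1a4 was 0.585 and 0.667 in 10p-HFSCs, against 0.00735 and 0 in 48p-HFSCs. The other 4 genes of the family, the remaining glutamate carriers, were not above 0.0747 FPKM in any library.

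Among the 11 genes of family Slc38a, sodium-coupled carriers of glutamine and other neutral amino acids, 5 were tested and Slc38a7 fell. Slc38a7 encodes a lysosomal carrier that exports glutamine, and it lies on chromosome 8 (95835920 to 95853539, minus strand). Its level was 8.08 and 8.14 FPKM in 10p-HFSCs and 3.35 and 1.67 FPKM in 48p-HFSCs, with no overlap. The difference was -1.42 (SE 0.33, 95% interval -2.23 to -0.61, limma adjusted p = 0.0332). Without 48p-HFSC replicate 2 it was -1.07 with an adjusted p of 0.058, no longer called, and over the settings tried its adjusted p ran from 0.0030 to 0.315. Slc38a2 was at 242 and 234 FPKM in 10p-HFSCs and at 285 and 116 FPKM in 48p-HFSCs, the later libraries lying on either side of the earlier ones. Its difference of -0.39 (SE 0.49, limma adjusted p = 0.595) became -1.03 with an adjusted p of 0.035 without 48p-HFSC replicate 1 and 0.26 without replicate 2, over a range of 0.035 to 0.869. The neighbours of Slc38a2 on chromosome 15, Slc38a1 and Slc38a4, encode related sodium-coupled carriers, and neither exceeded 0.284 FPKM, so of this gene cluster Slc38a2 alone was expressed at a level that could be tested. Slc38a10, a less studied member, was at 19.7 and 19.3 FPKM in 10p-HFSCs and at 25.9 and 33.1 FPKM in 48p-HFSCs (difference 0.56, SE 0.26, limma adjusted p = 0.170), without overlap and without passing the test. Slc38a9, the lysosomal arginine sensor, lay between 1.63 and 2.86 FPKM (difference 0.37), and Slc38a6 between 4.96 and 5.33 FPKM (difference -0.07, 95% interval -0.70 to 0.57).

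The heavy chains and the light chains of family Slc7a form 2-part exchangers, of which the light chain carries the substrate. Slc3a2, the CD98 heavy chain, lies on chromosome 19 (8706882 to 8723369, minus strand). It was at 91.0 and 76.8 FPKM in 10p-HFSCs and at 90.6 and 140.6 FPKM in 48p-HFSCs, with overlapping groups. The difference was 0.43 (95% interval -0.37 to 1.23, limma adjusted p = 0.377), and it was 0.11 without 48p-HFSC replicate 2. The other heavy chain, Slc3a1, which pairs with Slc7a9 in kidney and gut, was at 0.442 and 0.942 FPKM in 10p-HFSCs and at 0.028 and 0 FPKM in 48p-HFSCs, too low to be tested. Of the 10 light chains 4 were tested and Slc7a7 rose. Slc7a7, y+LAT1, exchanges cationic amino acids for neutral ones and sodium, and lies on chromosome 14 (54369442 to 54417780, minus strand). Its level was 1.15 and 0.923 FPKM in 10p-HFSCs and 3.50 and 3.21 FPKM in 48p-HFSCs, so the later libraries were both higher and close to each other. The difference was 1.10 (SE 0.25, 95% interval 0.49 to 1.70, limma adjusted p = 0.0296), and the ratio of mean FPKM was 3.23. It was 0.79 with an adjusted p of 0.382 after TPM rescaling, the highest of the settings tried, which began at 0.011. The end of Slc7a7 overlaps Oxa1l on the other strand by 231 bases, and although the library kit keeps the strand, the strand setting of the counting is not given in the sources used here.

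The close relative of Slc7a7, Slc7a6 (y+LAT2), which performs the same exchange, was at 29.8 and 21.9 FPKM in 10p-HFSCs and at 14.9 and 9.88 FPKM in 48p-HFSCs. Both later libraries were lower, and the difference of -1.01 (SE 0.31, limma adjusted p = 0.0724) did not pass the test. Without 48p-HFSC replicate 1 the difference was -1.29, and without replicate 2 it was -0.74. Over the fits that kept all 4 libraries, the limma adjusted p of Slc7a6 ran from 0.0092 with a replicate block to 0.127 after TPM rescaling. Slc7a5, LAT1, exchanges glutamine for leucine and other large neutral amino acids, and was at 28.7 and 29.1 FPKM in 10p-HFSCs and at 26.0 and 18.6 FPKM in 48p-HFSCs (difference -0.38, 95% interval -1.05 to 0.29, limma adjusted p = 0.353). Slc7a11, the cystine and glutamate exchanger xCT, lay between 1.39 and 3.14 FPKM, with overlapping groups and a difference of 0.12, which was -0.25 after TPM rescaling and 0.31 relative to the median of all genes in that scaling. As a share of the summed light chains, Slc7a7 made up 1.84% and 1.73% in 10p-HFSCs, against 7.31% and 9.66% in 48p-HFSCs, Slc7a6 made up 47.7% and 40.9% against 31.1% and 29.7%, and Slc7a5 made up 45.8% and 54.4% against 54.4% and 55.9%. The light chains summed to 62.6 and 53.5 FPKM in 10p-HFSCs and to 47.8 and 33.2 FPKM in 48p-HFSCs, below both earlier libraries. The level of the heavy chain Slc3a2 was 1.46 and 1.44 times that sum in 10p-HFSCs and 1.89 and 4.23 times in 48p-HFSCs, and no test was run on these ratios. The 6 untested light chains did not exceed 0.200 FPKM.

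The promoters of Slc7a11 and Slc7a7 are shown because, of the tested genes, they held the C/EBP-ATF response element, the site through which the factor ATF4 is known to act in amino acid shortage. The letters searched were TGATGNAA on both strands, in the 250 bases before each RefSeq start on GRCm38.p6. An entry was found for 46 of the 64 genes and for 18 of the 22 tested, and these letters were present in 3.45% of all 32851 windows and in 3 of the 29 windows of the tested genes, 1 of Slc7a11 and 2 of the 5 of Slc7a7. The first sequence is chr3:50443615-50443863 on the minus strand, where the capitals mark matches that begin 66 and 47 bases before the start (positions -66 and -47), and the second is chr14:54417945-54418194 on the minus strand, where they mark a match at -141.
Slc7a11: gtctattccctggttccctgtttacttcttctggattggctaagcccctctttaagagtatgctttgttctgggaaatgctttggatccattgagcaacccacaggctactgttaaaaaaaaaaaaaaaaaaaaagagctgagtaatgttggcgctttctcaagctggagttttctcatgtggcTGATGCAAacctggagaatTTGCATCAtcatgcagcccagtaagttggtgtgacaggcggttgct
Slc7a7: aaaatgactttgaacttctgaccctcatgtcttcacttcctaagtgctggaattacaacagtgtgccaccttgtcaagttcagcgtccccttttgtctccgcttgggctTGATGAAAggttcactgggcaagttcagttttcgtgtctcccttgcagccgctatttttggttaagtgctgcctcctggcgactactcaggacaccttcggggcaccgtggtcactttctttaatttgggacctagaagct
Of these 2 genes Slc7a7 rose and Slc7a11 did not pass the test, and a match in a promoter is a description of its letters only.

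Further carriers of arginine, lysine and ornithine in family Slc7a, the cationic amino acid transporter group, work without a heavy chain. Slc7a1, CAT1, the only one of these 5 genes that was tested, was at 76.2 and 53.6 FPKM in 10p-HFSCs and at 38.9 and 22.9 FPKM in 48p-HFSCs. The groups did not overlap, and the difference of -1.07 (SE 0.35, 95% interval -1.94 to -0.20, limma adjusted p = 0.0831) did not pass the test. Without 48p-HFSC replicate 1 the difference was -1.44, and without replicate 2 it was -0.70. Over the fits that kept all 4 libraries, the limma adjusted p of Slc7a1 ran from 0.0079 with a replicate block to 0.133 without a filter on low values. The highest value of any untested gene was that of Slc7a3, another cationic carrier, with 1.25 FPKM in 10p-HFSC replicate 2. Slc7a6os, which the symbol rule took with the carriers, is a gene of the strand opposite to Slc7a6 and no carrier, and it was at 22.5 and 27.0 FPKM in 10p-HFSCs and at 14.4 and 16.5 FPKM in 48p-HFSCs (difference -0.65, SE 0.26, limma adjusted p = 0.126).

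Family Slc6a holds sodium- and chloride-coupled carriers, some for amino acids and some for transmitters and other solutes. Slc6a13, GAT2, carries GABA, taurine and betaine, and lies on chromosome 6 (121300227 to 121337733, plus strand). Its level was 9.21 and 11.3 FPKM in 10p-HFSCs and 36.6 and 52.5 FPKM in 48p-HFSCs, a mean of 10.3 ± 1.47 (SD, n = 2) against 44.5 ± 11.2 (SD, n = 2). Both later libraries were more than 3 times the higher of the earlier ones. The difference was 2.00 (SE 0.29, 95% interval 1.29 to 2.71, limma adjusted p = 0.0078), and the ratio of means was 4.34. After TPM rescaling it was 1.46 with an adjusted p of 0.087, within a range of 7.99e-05 to 0.182 over all settings. Its direct neighbour on the chromosome, Slc6a12, which carries betaine and GABA, did not exceed 0.250 FPKM. Slc6a4, the serotonin carrier SERT, on chromosome 11 (76998603 to 77032340, plus strand), was at 15.9 and 12.9 FPKM in 10p-HFSCs and at 4.31 and 2.1 FPKM in 48p-HFSCs. The groups did not overlap, and the difference was -1.92 (SE 0.35, 95% interval -2.79 to -1.05, limma adjusted p = 0.0169). After TPM rescaling it was -2.43 with an adjusted p of 0.054, within 0.00024 to 0.262 over all settings.

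The creatine carrier Slc6a8 was at 48.9 and 65.4 FPKM in 10p-HFSCs and at 107.6 and 100.4 FPKM in 48p-HFSCs. Both later libraries were higher and the difference was 0.87 (SE 0.28, 95% interval 0.18 to 1.55), with a limma adjusted p of 0.0794 that did not pass. Slc6a6, the taurine carrier, was at 38.8 and 30.7 FPKM in 10p-HFSCs and at 34.8 and 17.7 FPKM in 48p-HFSCs, with overlapping groups. The difference was -0.46 (limma adjusted p = 0.409), and it was 0.01 without 48p-HFSC replicate 2. Slc6a9, the glycine carrier GlyT1, was the only tested gene of the 10 amino acid carriers in this family and lay between 13.1 and 14.9 FPKM in all 4 libraries (difference -0.11, 95% interval -0.72 to 0.50). The 9 untested amino acid carriers of family Slc6a did not exceed 0.110 FPKM.

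The promoter of Slc6a13 is shown because it is the gene that rose most among the 22 and 1 of its 3 windows held the core of the antioxidant response element. The letters searched were TGACNNNGC on both strands, present in 10.2% of all windows and in 6 of the 29 windows of tested genes (Slc38a2, Slc6a13, Slc6a9, Slc7a1 and Slc7a6). The bases printed are chr6:121300038-121300226 on the plus strand of GRCm38.p6, which end before the annotated first base of the gene, and the capitals mark the match that begins at -82 from the RefSeq start.
Slc6a13: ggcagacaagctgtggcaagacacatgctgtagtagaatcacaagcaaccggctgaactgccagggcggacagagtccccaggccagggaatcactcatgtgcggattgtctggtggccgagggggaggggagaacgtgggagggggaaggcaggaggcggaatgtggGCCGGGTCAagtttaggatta
None of the other 4 genes with these letters was called. The E-box letters CACGTG were in 6.02% of all windows and in 2 of the 29, those of Slc36a1 and of Slc38a7, the latter of which fell.

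The proton-coupled carrier Slc36a1 (PAT1), found in the lysosomal membrane, lay between 6.62 and 7.03 FPKM in 10p-HFSCs and between 8.44 and 11.8 FPKM in 48p-HFSCs, a difference of 0.49 that did not pass (limma adjusted p = 0.262). Slc43a2, LAT4, a sodium-independent carrier of leucine and other large neutral amino acids, lies on chromosome 11 (75531694 to 75577575, plus strand). It lay between 0.398 and 0.504 FPKM in 10p-HFSCs and between 1.44 and 13.1 FPKM in 48p-HFSCs, so the groups did not overlap but the later libraries differed widely. The difference was 2.02 (SE 0.78, 95% interval 0.10 to 3.93, limma adjusted p = 0.120). Without 48p-HFSC replicate 2 it was 3.28 with an adjusted p of 0.0035, and without replicate 1 it was 0.75, over a range of 0.0035 to 0.495. The other 2 genes of family Slc43a did not exceed 0.131 FPKM, nor the untested genes of family Slc36a 0.527 FPKM, a value of the antisense gene Slc36a1os.

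Of the 42 genes that could not be tested, 14 were listed at 0 in all libraries and 28 were above 0 in at least 1, with 38 of the 42 below 0.3 FPKM everywhere. FPKM give no read totals, so no limit can be set on the expression of the genes at 0.

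The difference of each gene was set beside the median difference of its chromosome. Over the 565 tested genes of chromosome 8 the median difference was -0.61, against -0.03 over all genes. All 4 tested transporter genes of that chromosome had lower means in 48p-HFSCs. Relative to the chromosome median the difference was -0.81 for Slc38a7, -0.41 for Slc7a6, -0.04 for Slc7a6os and 0.23 for Slc7a5, so Slc7a5 lay above it. Slc7a7 lies on chromosome 14, whose median was 0.44, and its difference relative to that was 0.66. The medians were 0.02 for chromosome 6 of Slc6a13, 0.08 for chromosome 7 of Slc1a5 and chromosome 11 of Slc6a4, and 0.30 for chromosome 15 of Slc1a3. The part of the chromosome-wide differences in the calls of Slc38a7 and Slc7a7 was not tested.

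**Figure D4:**
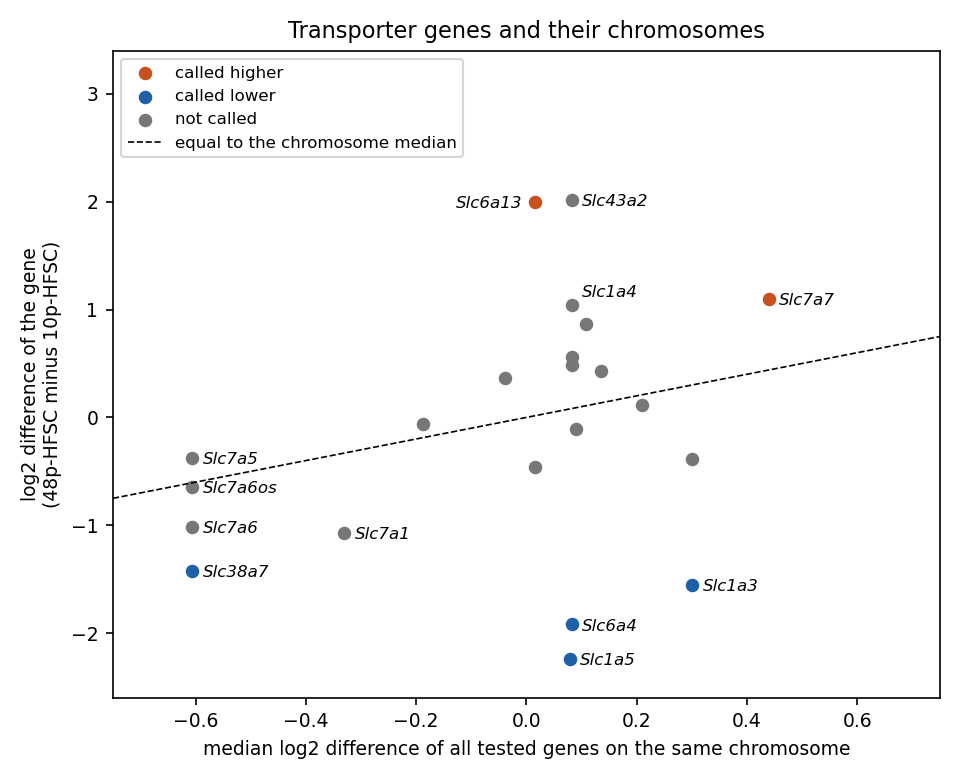
Log2 difference of each tested transporter gene (vertical axis, 48p-HFSC minus 10p-HFSC) against the median log2 difference of all tested genes on its chromosome (horizontal axis), with the dashed line where both are equal. The 4 genes at the left are those of chromosome 8 at a median of -0.61, of which Slc38a7 lies farthest below the line, and Slc7a7 at the right lies 0.66 above it.

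Genes that act with the carriers were described from lists of known function. Of 32 amino acid response genes, most of them induced by ATF4 when amino acids are short, 30 were tested. Of these 3 rose and none fell, beside the 10.8% and 9.15% of all genes. An unadjusted limma p under 0.05 was reached by 9 of the 30, beside 4118 of all 11018 genes. Those that rose were Ddit4, an inhibitor of mTORC1 (difference 1.48), Cars, a cysteine tRNA ligase (1.17), and Cebpg, a partner of ATF4 (1.13). The median difference of the list was 0.31, with 23 of the 30 differences above 0, beside -0.03 over all genes, and after TPM rescaling it was -0.27, with 11 of the 30 above 0, beside -0.56 over all genes, or 0.28 relative to them. Ddit3, which encodes the stress-induced factor CHOP and is named after its values were seen, had the largest difference of the list but did not pass: it was at 18.3 and 35.4 FPKM in 10p-HFSCs, at 92.2 FPKM in replicate 1 and at 1043 FPKM in replicate 2 of 48p-HFSCs (difference 3.56, SE 1.08, limma adjusted p = 0.0692). The summed FPKM of the list was 1776 and 1886 in the earlier libraries and 2314 and 4065 in the later ones, highest in 48p-HFSC replicate 2. Atf4 itself was at 230 and 304 FPKM in 10p-HFSCs and at 272 and 419 FPKM in 48p-HFSCs, with overlapping groups (difference 0.35, limma adjusted p = 0.564), and its target Asns, asparagine synthetase, was at 117 and 89.2 against 174 and 207 FPKM (difference 0.89, adjusted p = 0.0958 by limma). Of 36 genes of amino acid sensing upstream of mTORC1, 32 were tested, Tbc1d7, a subunit of the TSC complex, rose (1.07), and Sesn3 and Rragc fell. Sesn3, a relative of the leucine sensor sestrin 2, was at 7.83 and 3.91 FPKM in 10p-HFSCs and at 0 and 0 FPKM in 48p-HFSCs. Rragc, a Rag GTPase that brings mTORC1 to the lysosome, was at 48.1 and 51.9 FPKM in 10p-HFSCs and at 22.6 and 23.5 FPKM in 48p-HFSCs (difference -1.09, limma adjusted p = 0.028). Mtor did not pass (difference 0.19, limma adjusted p = 0.663), and the median of the list was -0.20.

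Of 40 genes of amino acid metabolism 31 were tested, 5 rose and 4 fell, with a median of 0.09. After TPM rescaling the median was -0.46, which is 0.10 above that of all genes in that scaling. The largest differences among those called were those of Ass1, the argininosuccinate synthetase that makes arginine from citrulline (2.12), Glul, glutamine synthetase (-2.04), Odc1, the ornithine decarboxylase of polyamine synthesis (1.74), Gpt, an alanine aminotransferase (1.42), Shmt1, a cytosolic serine hydroxymethyltransferase (-1.41), and Got2, the mitochondrial aspartate aminotransferase (-1.33). Glul was at 3.72 and 2.81 FPKM in 10p-HFSCs and at 0.0226 and 0.0402 FPKM in 48p-HFSCs. Glul and the glutamine exchanger Slc1a5 were thus both near 0 in the later libraries, where Slc38a2, of another family that carries glutamine, was at 285 and 116 FPKM. Of 19 other carriers of amino acids and peptides 9 were tested and the median was -0.04. Slc15a3, a lysosomal carrier of histidine and small peptides, rose by 2.53, and Slc16a10, a carrier of aromatic amino acids, by 1.45, whereas Slc25a12, the mitochondrial aspartate and glutamate carrier, fell by 1.37 and Slc25a38, the mitochondrial glycine carrier, by 1.19. Of 9 regulators of the carriers 8 were tested, 2 rose and the median was -0.02. Nedd4l, a ubiquitin ligase for membrane carriers, rose by 1.31. Over the 5 lists 100 different genes were tested, of which 13 rose (13%, beside 10.8% of all genes) and 8 fell (8%, beside 9.15%), shares near those of all genes. These 21 calls became 10 without a filter on low values and 12 after TPM rescaling. Most of them were lost without either 10p-HFSC library, as were most calls over all genes.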

How the data were processed

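Messenger RNA of 10p- and 48p-HFSCs was sequenced from stranded single-end libraries, 2 per group. The authors deposited FPKM per gene symbol and library, made by mapping to mm10. The submitters' processing notes name TopHat2 2.1.1, Bowtie2 2.2.8, SAMtools 0.1.18 and Cuffdiff 2.2.1. The gene annotation, the strand setting and the handling of reads with several positions are not given in the sources used here. The study tested counts with DESeq2, and FPKM are not counts, so no count test was run here.

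Log2(FPKM + 1) values of genes that reached 1 FPKM in 2 or more libraries were fitted with limma 3.58.1 (lmFit, eBayes with a variance trend, R 4.3.3) on all 4 libraries, with group as the only term. P-values were adjusted by Benjamini-Hochberg over all 11018 genes. The limits for a call were an adjusted p under 0.05 and a log2 difference of at least 1. The fit was also run on simulated data that gave both groups the same spread. In the real libraries, replicates differed by a median of 0.47 in 48p-HFSCs and 0.22 in 10p-HFSCs over all tested genes. That run therefore cannot show the rate of false calls here. Nothing says that the libraries were separate cultures, so p-values measure only the spread between these libraries, which may be technical. The relative depth is the most common ratio of FPKM values under 0.3 between libraries, and the absolute depth is unknown, so no counting interval is given.

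Positions came from GENCODE M21 and promoters from RefSeq. Genes, lists and marker genes were chosen with earlier results of these data known. FPKM of each library were to be given for called genes, for others that reached 20 FPKM and for the heavy chains, and further genes as ranges. Of other lists, at most 6 called genes by size of difference were named, plus Atf4, Asns and Mtor. Castor1 and Castor2 of the sensing list were not matched. Alternatives were a pseudocount of 0.1, no filter, a mean FPKM of at least 1, TPM rescaling, quantile normalization, median-of-ratios scaling, a constant variance prior, no fold limit, an adjusted p under 0.1, a replicate block, chromosome centring and leaving out each library. Some genes of the lists and neighbourhoods are not reported here.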

Additional observations from a re-analysis of the deposited data

How the results depend on the processing

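Called genes are given as higher and lower in 48p-HFSCs. Without a filter on low values, 1 of the 22 transporter genes was higher and 2 lower, with 10 list genes called and 637 of all genes lower, and Slc38a7, Slc6a4 and Slc7a7 were lost. After TPM rescaling 0 were higher and 2 lower, with 12 list genes called and 623 of all genes higher. Relative to the median of all genes in that scaling, Slc7a7 differed by 1.35. Leaving out each library in turn, the transporter genes called ranged from 0 to 4 higher and from 0 to 7 lower, the list genes from 1 to 30, and all genes from 35 to 1936 higher and from 140 to 1875 lower. Without either 10p-HFSC library all 6 transporter calls were lost, fits in which the lone 10p-HFSC library is assumed to vary like the others. At an adjusted p under 0.1, Slc7a1 and Slc7a6 were also called. With a pseudocount of 0.1, a mean FPKM of at least 1, quantile normalization, median-of-ratios scaling, a constant variance prior or no fold limit, the counts stayed at 2 higher and 4 lower, and no called transporter gene changed direction under any alternative. Median-of-ratios scaling hardly altered the values, with a median over all genes of -0.03 before and after, so its unchanged counts say little. Without a pseudocount, the log2 ratio of mean FPKM, an alternative chosen after seeing the data as was the centring of TPM values, was -5.49 for Slc1a5 and -4.38 for Slc1a3.

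The libraries of the groups share replicate numbers, but the labels do not say that a number marks a shared batch, and with 2 pairs the correlation of same-numbered deviations was 0.408. With the replicate block, 4 transporter genes were called higher and 6 lower, 1613 and 1497 of all genes, the additional genes being Slc1a4, Slc43a2, Slc7a1 and Slc7a6. The unknown absolute depth and the shallow 48p-HFSC replicate 2 limit what can be said of the genes under 1 FPKM.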

Other observations

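The genes next to 5 of the called carriers were compared with them, over the 2 nearest tested genes on each side. Beside Slc38a7 on chromosome 8, Setd6, a lysine methyltransferase, was at 9.77 and 11.2 FPKM in 10p-HFSCs and at 0 and 0.143 FPKM in 48p-HFSCs (log2 difference -3.42, limma adjusted p = 0.0012). Cnot1, the scaffold of the CCR4-NOT complex, and Got2, which also stands in the list of amino acid enzymes, fell as well (differences -1.60 and -1.33), and Tk2, far away, did not pass (-0.67). Around Slc6a13, Usp18, an interferon-induced protease, rose from 6.51 and 4.22 FPKM to 47.1 and 24.1 FPKM (difference 2.47), whereas Pex26, M6pr and Phc1 were not called. Of the neighbours of Slc6a4, Tmigd1 and Coro6 rose (3.59 and 2.40), against the direction of Slc6a4, and the directly adjacent Blmh and Ssh2 differed by 0.12 and -0.15 without passing. None of the 4 neighbours of Slc7a7 or of the 4 neighbours of Slc1a3 was called.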
